A study of Homo sapiens with 40 samples.

Results

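The basal transcriptome of U87 cells carrying Q780* IRE1 was compared with that of cells carrying the empty vector (EV). The comparison rests on 6 of the series' 40 arrays, 3 for Q780* and 3 for EV, and takes in all genes that could be tested. U87 is an established human glioblastoma line. The lines compared here were made by stable lentiviral transduction of U87 cells at a multiplicity of infection of 0.3, with a vector that also encodes puromycin resistance and a green fluorescent protein. The EV cells received the vector without an insert, and the Q780* cells received IRE1 with a stop codon at that position of the kinase domain. The labels give the Q780* samples the clone number 4, whereas the study's methods describe selected cell populations. A single clone and a population could therefore not be told apart. All cells kept their own IRE1. Further arrays were used for reference. Wild-type IRE1 (WT) and the kinase-domain variant S769F, 3 basal arrays each, were compared directly with Q780*, and Q780* and EV arrays after tunicamycin (0.5 µg/ml for 16 h, 3 arrays each) gave the same contrast in other samples. Tunicamycin blocks N-glycosylation and so loads the endoplasmic reticulum (ER) with unfolded protein. The series also holds WT and S769F arrays on tunicamycin. Its other lines carry the IRE1 variants P336L and A414T or a dominant-negative IRE1 (IRE1-DN), each basal and on tunicamycin. For IRE1-DN only replicates 2 and 3 are present in each condition. These arrays entered the fit over all arrays, the gene means over all arrays and the comparison of chromosome stretches across lines.

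IRE1, encoded by ERN1, is an ER membrane protein with a sensor domain inside the ER and a kinase and an RNase domain in the cytosol. Its RNase removes an intron from XBP1 mRNA, which yields the transcription factor XBP1s, and cleaves other RNAs in a process called RIDD. XBP1s raises genes for folding, glycosylation, ER export and degradation of proteins. PERK, with its effector ATF4, and ATF6 form the other arms of the unfolded protein response (UPR). IRE1 can also feed into NF-kB and JNK signaling, which drive inflammatory cytokines. A Q780* product lacks the end of the kinase domain and the whole RNase domain.

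Values below are log2 signals after robust multiarray averaging (RMA), on which 1 unit is a 2-fold difference. A gene was called when its difference reached 2-fold and its limma p, adjusted with the Benjamini-Hochberg method over 17191 genes, was below 0.05. Members of gene lists were counted at the adjusted p alone. The labels call the samples of a line biological replicates but do not say whether they came from separate cultures. The p-values therefore measure the spread between samples of the same line and condition. Unless stated otherwise, this spread was pooled over all arrays of the series and not taken from the compared arrays alone. Signals on the 3 Q780* arrays correlated with each other at r = 0.985 to 0.987 and those on the EV arrays at 0.980 to 0.984. Probe sets at the 5′ and 3′ ends of ACTB, a gauge of RNA integrity, differed by 1.43 to 1.53 on Q780* arrays and by 1.76 to 2.03 on EV arrays. These ranges did not overlap, and the part of RNA quality in the results was not tested beyond a fit that includes this measure. Markers of the glioblastoma line (VIM, CD44, TNC, CAV1, S100A6, NES) were all present, with a summed signal of 14.99 to 15.10 on Q780* and 15.03 to 15.10 on EV arrays. Of 6 astrocyte markers 4 could be tested, and GFAP, which defines astrocytes, had a mean of 4.02 in Q780* and 4.01 in EV cells, below the detection level of 4.23 to 4.31. The summed astrocyte signal was 11.56 to 11.81 on Q780* and 11.90 to 11.98 on EV arrays. Of 7 marker lists for other cell types, 1 gene passed the adjusted p, FAP of the fibroblast list, which was lower in Q780* cells (log2 difference -0.88, SE 0.21, adjusted p = 0.00847 with limma). The summed fibroblast signal was 8.88 to 9.19 on Q780* and 9.35 to 9.41 on EV arrays, and the part of these markers in the results was not tested.

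The ERN1 transcript itself was measured first. Of the 3 probe sets that read it, the one with the highest signal gave 5.89, 6.30 and 6.62 on the Q780* arrays and 5.81, 6.59 and 5.86 on the EV arrays, so that the lines overlapped (log2 difference 0.18, SE 0.25, adjusted p = 0.83 with limma). A second probe set gave 5.74, 6.09 and 6.36 against 5.31, 4.95 and 5.27. There all Q780* arrays lay above all EV arrays, by 0.89 (SE 0.27), with an adjusted p of 0.0738 over 42251 probe sets in limma. The WT arrays read 5.59, 5.72 and 5.97 with the same probe set. The third did not separate the lines (-0.11, SE 0.17, adjusted p = 0.883 in limma). Which part of the transcript each probe set reads was not determined here, so these values do not check for the transgene.

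In Q780* cells 121 genes were called higher and 78 lower than in EV cells, that is 0.704% and 0.454% of the 17191 genes tested. HMGN3, a nucleosome-binding protein, rose most, and IGFBP2, a secreted binder of insulin-like growth factors, fell most. With the ACTB measure as a covariate the split turned to 98 higher and 108 lower, without Q780* replicate 3 the calls were 112 and 142, and the mean of all probe sets per gene gave 65 and 51. The methods' t-test without adjustment called 193 genes, but after Benjamini-Hochberg adjustment it called 1 higher and 1 lower. In simulated data for this comparison, limma called 96% of genes altered by 1.5 log2 units. Of those altered by 1.0, the size of the 2-fold minimum itself, it called 43%, and 78% passed the adjusted p. It also called 4 unaltered genes. The simulated noise was independent between arrays, whereas real arrays of the same replicate number deviated together, so these rates may not hold for the real data.

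HMGN3 read 8.58, 8.40 and 8.71 on Q780* arrays and 4.12, 3.91 and 3.92 on EV arrays. The EV signals lay below the detection level on all 3 arrays, so that Q780* stood at least 19.4-fold higher, with the detection level in place of the EV signals (adjusted p = 5.21e-21 with limma). IGFBP2 showed the opposite picture, with 4.49, 4.01 and 4.47 on Q780* arrays against 8.34, 8.34 and 8.74 on EV arrays. Its fitted difference was -4.15 (SE 0.14, adjusted p = 3.49e-19 with limma). As 1 of the 3 Q780* arrays lay below the detection level, it may understate the change. SLC7A11, the cystine-importing chain of the cystine-glutamate exchanger, read 10.42, 10.46 and 10.25 against 7.48, 7.25 and 6.82 (3.19, SE 0.18). Its 3 tested probe sets all pointed the same way. TMEM200A, a membrane protein, read 6.66, 6.78 and 7.56 against 3.71, 3.82 and 4.06. All EV signals lay below the detection level, and Q780* stood at least 6.57-fold higher.

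**Figure D1:**
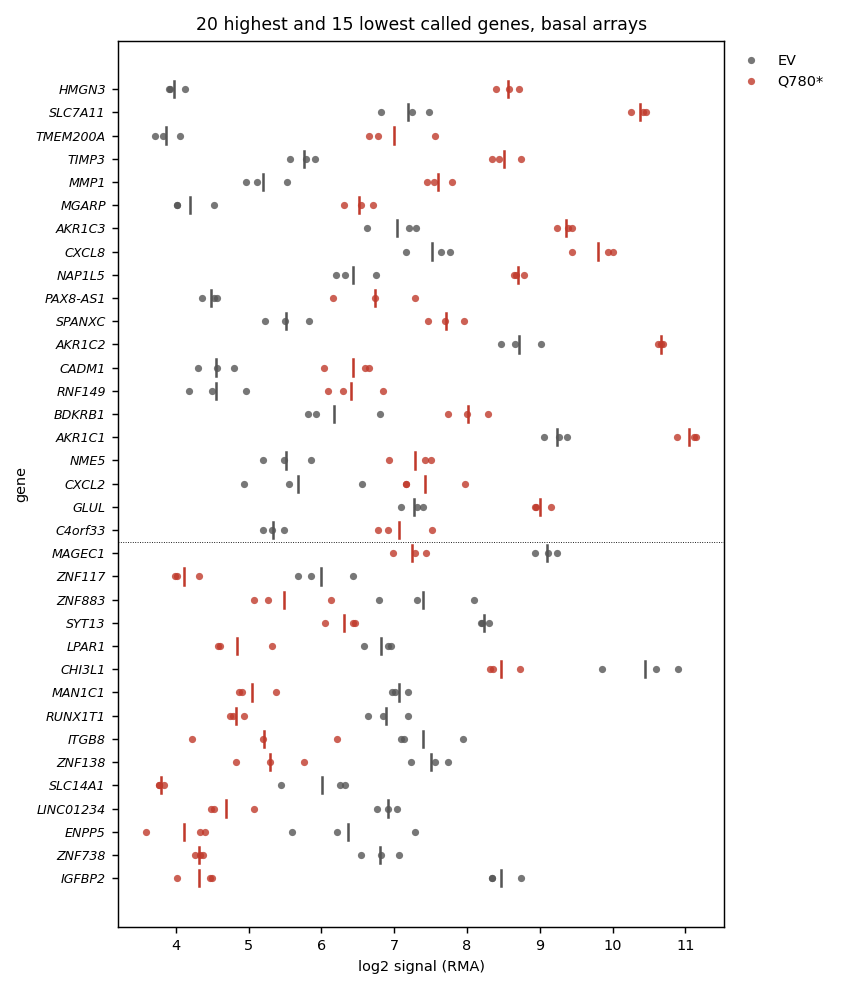
Log2 RMA signals (x axis) of the 20 highest and 15 lowest called genes (y axis), with each array as a point and each group mean as a vertical bar, for Q780* (red) and EV (grey) cells under basal conditions, 3 arrays each. In each of the 35 genes the 3 Q780* arrays lie on one side of the 3 EV arrays, from HMGN3 (8.40 to 8.71 against 3.91 to 4.12) to IGFBP2 (4.01 to 4.49 against 8.34 to 8.74).

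Other strongly raised genes had varied roles. TIMP3, an inhibitor of matrix metalloproteinases held in the extracellular matrix, read 8.34, 8.44 and 8.74 against 5.79, 5.57 and 5.91 (2.75, SE 0.21), with 4 of 4 probe sets in the same direction. MMP1, the interstitial collagenase, read 7.45, 7.55 and 7.80 against 4.96, 5.12 and 5.53 (2.40, SE 0.37). Both the protease and the inhibitor were thus higher on every Q780* array. The chemokine CXCL8 (2.27), the aldo-keto reductases AKR1C3 (2.32), AKR1C2 (1.94) and AKR1C1 (1.81), and glutamine synthetase GLUL (1.74) followed. For AKR1C1 only 3 of 5 tested probe sets pointed this way. BDKRB1, the inducible bradykinin receptor, rose by 1.83, and the cell adhesion molecule CADM1 by 1.87. RNF149, a ubiquitin ligase, rose by 1.87, with 1 EV array below the detection level, and NME5 by 1.78. PAX8-AS1, an antisense RNA, read 2.25 higher, although 1 of its 2 tested probe sets pointed the other way. SPANXC (2.20) belongs to a family of near-identical X-linked genes, and AKR1C1 and AKR1C2 are close paralogs, so their probes may share signal.

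Among the lowered genes, MAN1C1, a Golgi mannosidase, read 4.87, 5.38 and 4.91 against 7.01, 7.19 and 6.97 (-2.005, SE 0.264). CHI3L1, a secreted glycoprotein used as a mesenchymal glioma marker, read 8.32, 8.36 and 8.73 against 10.60, 9.85 and 10.90 (-1.98, SE 0.34). ITGB8, the integrin chain that activates latent TGF-beta, spread over 4.22 to 6.21 on Q780* arrays and still lay below its EV range of 7.10 to 7.94 (-2.18, SE 0.37). LPAR1, a lysophosphatidic acid receptor, fell by 1.98, SYT13, a synaptotagmin, by 1.92 and RUNX1T1, a transcriptional corepressor, by 2.07. SLC14A1, a urea transporter, was below the detection level on all Q780* arrays and at least 3.29-fold lower than in EV cells. ENPP5 fell by 2.25, LINC01234 by 2.22 and MAGEC1, a cancer-testis antigen, by 1.85. ENPP5 and ITGB8 each lay below the detection level on 1 Q780* array. Of 423 tested genes whose symbol starts with ZNF, 10 were called lower and 1 higher (0.454% and 0.704% of all genes were), with a median difference of -0.06 over all of them. The 10 included ZNF738 (-2.5), ZNF14, ZNF93, ZNF85 and ZNF44 on chromosome 19 and ZNF138 (-2.21), ZNF117 (-1.88), ZNF680 and ZNF273 on chromosome 7. ZNF883 (-1.91) lies on chromosome 9. ZNF738 was below the detection level on 1 Q780* array and ZNF117 on 2, so their differences may be understated. The genes of chromosomes 19 and 7 are close paralogs that sit in clusters, and their probes may share signal. This grouping was chosen after the values were seen and was not tested.

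Many of the raised genes were neighbours. When genes were put in chromosome order and a running median over 31 tested genes was taken, 3 autosomal stretches stood more than 0.2 above 0 for at least 20 genes, and none stood below -0.2. The largest ran over 340 tested genes of chromosome 4, from CNOT6L to ANKRD37. Its median difference was 0.46, 83.2% of its genes were above 0, and 138 passed the adjusted p as higher and 0 as lower. That is 40.6% of the stretch, against 3.36% of all genes tested (1.83% were lower and 5.18% either). The 298 genes of chromosome 4 ahead of it had a median of 0.03. The second stretch, from LOC105376360 to STAM on chromosome 10 (66 genes), had a median of 0.58, with 29 genes higher and 0 lower. The running median cannot reach the first 15 tested genes of that chromosome, whose own median was 0.49. The third, from GORAB to C1orf21 on chromosome 1 (78 genes), was shallower, with a median of 0.24 and 22 genes higher. Over the 16051 other autosomal genes the median was 0.01.

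The stretches were chosen on the basal values, so these counts describe them and test nothing. The tunicamycin arrays had no part in that choice. On them the chromosome 4 stretch stood 0.42 above EV, the chromosome 10 stretch 0.52 and the chromosome 1 stretch 0.17 at the median. In each stretch all 3 Q780* tunicamycin arrays lay above all 3 EV tunicamycin arrays (two-sided exact permutation p = 0.1 for each, the smallest that 3 against 3 arrays allow). Against WT the picture was different. The median difference between Q780* and WT cells was 0.01 over the chromosome 4 stretch, 0.01 over the chromosome 10 stretch and 0.16 over the chromosome 1 stretch. The WT cells themselves stood 0.44, 0.59 and 0.10 above EV in the same order, and the S769F cells 0.45, 0.59 and 0.30. All these differences share the 3 EV basal arrays. Set against each gene's mean over all 40 arrays, the chromosome 4 stretch read -0.36, -0.43 and -0.31 on the EV arrays and 0.06, 0.00 and 0.07 on the Q780* arrays. The EV arrays thus stood apart from every other line in the first 2 stretches. The arrays measure RNA, and whether the lines differ in DNA copy number there was not tested.

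**Figure D2:**
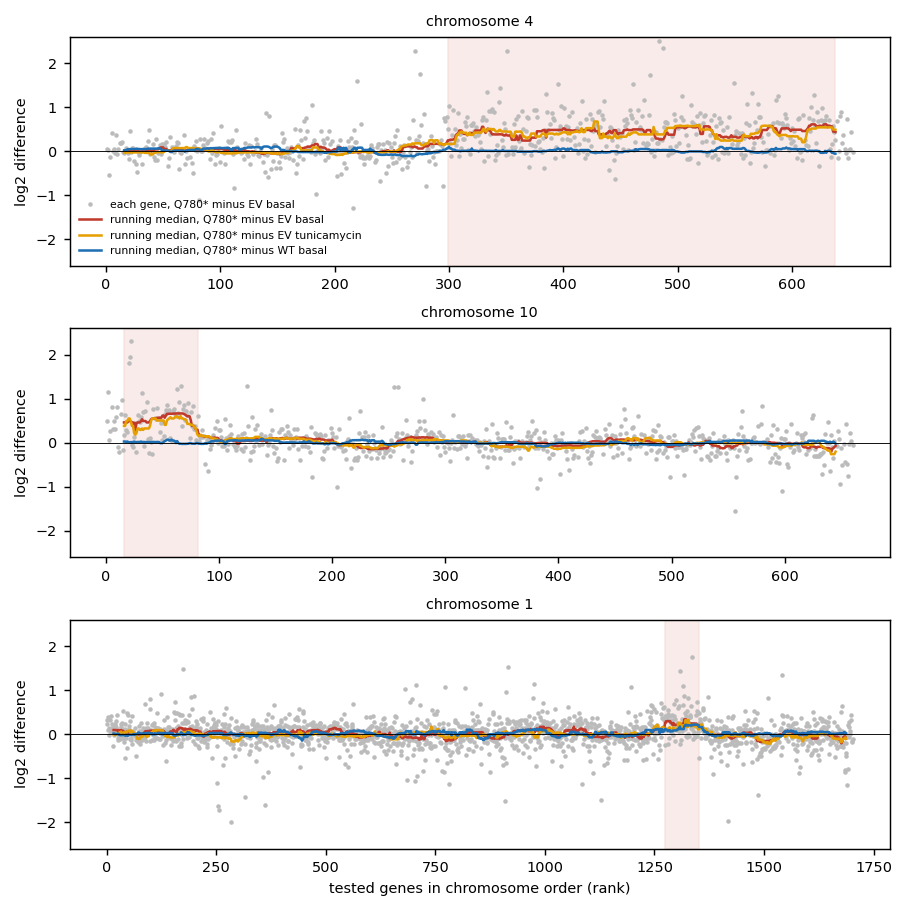
Log2 difference (y axis) of each tested gene (grey points, drawn at the plot limits where beyond 2.5) in chromosome order (x axis, rank), with running medians over 31 genes for Q780* minus EV under basal conditions (red), Q780* minus EV on tunicamycin (orange) and Q780* minus WT under basal conditions (blue); shading marks the 3 stretches. Both differences from EV rise together over the shaded stretches of chromosomes 4 and 10 (basal medians 0.46 and 0.58), where the difference from WT stays near 0.01.

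**Figure D3:**
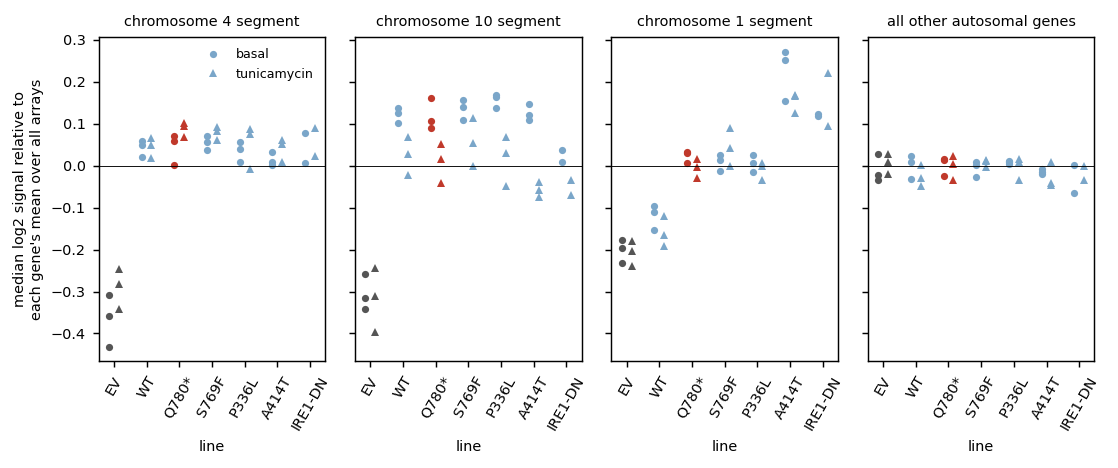
Median log2 signal over the genes of each stretch, relative to each gene's mean over all arrays (y axis), for every array of every line (x axis), basal (circles) and tunicamycin (triangles), with EV in grey, Q780* in red and the other lines in blue. For chromosomes 4 and 10 the 6 EV arrays lie below all others, whereas over all other autosomal genes the lines overlap around 0.

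The 3 stretches held 33 of the 121 genes called higher (27.3%) and 0 of the 78 called lower, beside 2.82% of all tested genes. Outside them 88 genes were called higher and 78 lower, a count added after the data had been seen. SLC7A11, MGARP (2.34), NAP1L5 (2.27), C4orf33 (1.74), the Wnt antagonist SFRP2 (1.56), the DNA demethylase TET2 (1.53), the transporter ABCG2 (1.44), the NF-kB subunit gene NFKB1 (1.30) and osteopontin SPP1 (1.11) lie in the chromosome 4 stretch. AKR1C1, AKR1C2 and AKR1C3 lie in that of chromosome 10, and GLUL in that of chromosome 1. HMGN3, TMEM200A, TIMP3, MMP1, CXCL8 and CXCL2 lie outside. MGARP was below the detection level on 2 EV arrays, so its difference may be understated. The differences of SLC7A11 (3.19) and AKR1C3 (2.32) were several times the medians of their stretches, 0.46 and 0.58. Both were the most raised called genes of their stretches, so a value above the median was given by that choice. The reason for their larger differences was not tested.

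The UPR was examined through lists of genes for each arm. None of the 19 tested ATF6 targets and ER chaperones passed the adjusted p in either direction with limma, none passed an unadjusted p of 0.05, and their median was 0.06. Among 25 XBP1s targets, 3 passed as higher and 1 as lower (3.36% and 1.83% of all genes did), with a median of -0.05, close to 0.02 for all genes. The 3 were SEC31A (0.78), a coat protein of ER export vesicles, SPCS3 (0.75), a signal peptidase subunit, and OSTC (0.52), an oligosaccharyltransferase subunit. All 3 lie in the chromosome 4 stretch, and outside the stretches 0 were higher. CRELD2, an ER-resident disulfide isomerase, was 0.32 lower. DNAJB9, an ER co-chaperone strongly controlled by XBP1s, read 8.51, 8.38 and 8.20 on Q780* and 8.79, 8.52 and 8.01 on EV arrays. The lines overlapped (-0.08, SE 0.16, adjusted p = 0.899 with limma). XBP1 (-0.02), EDEM1 (-0.13) and HERPUD1 (0.02) also overlapped between the lines.

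Sensors and transcription factors of the UPR gave 2 higher genes of 15 and 0 lower (3.36% and 1.83% of all genes were). DDIT3, which encodes the pro-apoptotic factor CHOP, read 8.70, 8.03 and 8.22 against 8.07, 6.5 and 7.48 (0.97, SE 0.26, adjusted p = 0.02 with limma). The ranges overlapped at EV replicate 1, and the call was lost without EV replicate 2, without Q780* replicate 1 and with the ACTB measure as a covariate. ATF3, a stress-induced repressor, was 0.81 higher with no overlap, and 2 of its 3 tested probe sets pointed this way. Its call was lost without EV replicate 1 or 3 or Q780* replicate 1 or 2 and with the mean of probe sets. Of 35 PERK and ATF4 targets 6 were higher (17.1%, against 3.36% of all genes) and 0 lower. Besides SLC7A11 they were the cystathionine lyase CTH (1.03), the amino acid transporter chains SLC7A5 (0.91) and SLC3A2 (0.82), the secreted glycoprotein STC2 (0.50) and the tryptophan-tRNA synthetase WARS1 (0.50). SLC3A2 is the shared partner of both SLC7A11 and SLC7A5. With the ACTB covariate the calls of CTH and SLC3A2 were lost, and 4 genes of the list passed. The SLC3A2 call was also lost without EV replicate 2 or 3 or Q780* replicate 1 or 2. That of SLC7A5 was lost without EV replicate 2 or Q780* replicate 1 or 2, and that of CTH without EV replicate 1 or Q780* replicate 3. When only the 6 arrays compared entered the fit, 2 of the PERK and ATF4 genes and 0 of the UPR factors passed, and a replicate block in that fit gave the same 2 counts.

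Of the reported RIDD substrates, RNAs that the RNase of IRE1 cleaves, 16 could be tested. Of these, 2 were higher and 1 lower (3.36% and 1.83% of all genes were). PER1, a circadian clock gene, read 6.59, 6.41 and 6.25 on Q780* and 6.03, 5.34 and 5.80 on EV arrays (0.69, SE 0.21, adjusted p = 0.0474 with limma). INSIG1, which holds back cholesterol synthesis, was 0.48 higher. SCARA3, a scavenger receptor, was 1.31 lower, with 5.05, 5.81 and 6.47 against 6.98, 6.77 and 7.52. SPARC (0.22, adjusted p = 0.143), PDGFRB (-0.20, adjusted p = 0.748) and COL6A1 (-0.23, adjusted p = 0.404) did not pass in limma. The list median was -0.05. None of these 3 calls held with only the 6 arrays in the fit, with or without a replicate block. The PER1 call was also lost without EV replicate 2 or 3 or Q780* replicate 1 or 2, with the ACTB covariate, the mean of probe sets, a trended robust fit, no filter and renewed quantile normalization. The SCARA3 call was lost without EV replicate 3 or Q780* replicate 1 and with the mean of probe sets, and the INSIG1 call without EV replicate 1.

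A second group came from the study's candidates for regulation by miR-17, a microRNA reported as an IRE1 substrate. The genes tested here are part of a longer list, which the study chose on samples of this series, and are no independent evidence. All 3 tested genes were lower in Q780* cells (1.83% of all genes were). They were MAN1C1 (-2.005), the cytokine TSLP (-1.46, with 7.42, 7.36 and 7.80 against 9.03, 8.78 and 9.15) and the transcription cofactor LMO2 (-1.07). The sequence of the microRNA (RefSeq, GRCh38.p14, chr13:91350618-91350640, plus strand) is shown with its seed, bases 2 to 8, in capitals, since the seed defines which sites it can pair with. The arrays did not measure it.
hsa-miR-17-5p: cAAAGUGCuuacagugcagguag

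Of 5 tested neutrophil-attracting chemokines, 2 were higher in Q780* than in EV cells (3.36% of all genes were) and all 5 were lower than in WT cells (0.948% of all genes). The neutrophil-attracting CXC chemokines of chromosome 4 signal through CXCR1 and CXCR2 and are classical NF-kB targets. Their promoters are shown because all 5 tested members hold the same NF-kB site, the letters GGAATTTCC searched on both strands. The site is in capitals within 250 bases before and 50 bases after the start of each gene (RefSeq, GRCh38.p14). It begins 91 bases before the start in CXCL8, 90 in CXCL5, 78 in CXCL1 and CXCL3 and 77 in CXCL2. Among the promoters of 13531 tested genes, 58 (0.429%) hold these letters. Apart from CXCL2 and CXCL8, 1 other gene called higher holds them, NFKB1, among 97 such promoters. Among 60 promoters of genes called lower 1 holds them, that of ZNF44. Letters of sites for other factors were searched in these promoters as well and are not shown. A match is a description and does not show that the factor was bound.
CXCL8 (chr4:73740319-73740618, plus strand): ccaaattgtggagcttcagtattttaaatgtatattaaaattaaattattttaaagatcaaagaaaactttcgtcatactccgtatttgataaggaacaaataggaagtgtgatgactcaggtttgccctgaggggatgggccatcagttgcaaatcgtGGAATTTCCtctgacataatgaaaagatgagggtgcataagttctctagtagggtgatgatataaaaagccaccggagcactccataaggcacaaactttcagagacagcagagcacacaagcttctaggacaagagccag
CXCL2 (chr4:74099146-74099445, minus strand): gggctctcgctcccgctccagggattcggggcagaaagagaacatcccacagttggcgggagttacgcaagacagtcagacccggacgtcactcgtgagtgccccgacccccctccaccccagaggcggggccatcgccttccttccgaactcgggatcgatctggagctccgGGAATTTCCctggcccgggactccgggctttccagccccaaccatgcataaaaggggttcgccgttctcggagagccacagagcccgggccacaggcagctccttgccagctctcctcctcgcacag
CXCL1 (chr4:73869143-73869442, plus strand): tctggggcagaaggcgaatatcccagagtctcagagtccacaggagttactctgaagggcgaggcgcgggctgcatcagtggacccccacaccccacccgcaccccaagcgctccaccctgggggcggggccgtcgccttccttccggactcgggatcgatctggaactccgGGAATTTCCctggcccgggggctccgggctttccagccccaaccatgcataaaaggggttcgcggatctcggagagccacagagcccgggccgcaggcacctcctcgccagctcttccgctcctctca
CXCL3 (chr4:74038640-74038939, minus strand): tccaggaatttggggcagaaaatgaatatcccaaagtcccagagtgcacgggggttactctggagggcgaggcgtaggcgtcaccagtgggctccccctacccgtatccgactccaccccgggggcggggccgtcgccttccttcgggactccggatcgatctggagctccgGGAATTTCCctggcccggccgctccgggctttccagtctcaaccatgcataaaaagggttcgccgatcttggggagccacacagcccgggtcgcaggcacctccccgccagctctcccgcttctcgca
CXCL5 (chr4:73998628-73998927, minus strand): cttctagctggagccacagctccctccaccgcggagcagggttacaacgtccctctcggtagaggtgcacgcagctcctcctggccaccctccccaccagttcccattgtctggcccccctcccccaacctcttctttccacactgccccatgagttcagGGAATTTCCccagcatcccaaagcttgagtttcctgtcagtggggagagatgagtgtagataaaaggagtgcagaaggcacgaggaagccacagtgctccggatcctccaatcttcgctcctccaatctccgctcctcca

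CXCL8, also called interleukin-8, read 9.94, 10.00 and 9.45 in Q780* cells and 7.16, 7.65 and 7.77 in EV cells (2.27, SE 0.34, 4.84-fold, adjusted p = 3.46e-05 with limma). CXCL2 read 7.16, 7.98 and 7.16 against 4.93, 6.56 and 5.56 (1.75, SE 0.43, adjusted p = 0.0109 with limma). For both genes all Q780* arrays lay above all EV arrays, although for CXCL2 the EV arrays spread widely and the call was lost without EV replicate 1 or Q780* replicate 2 and with the mean of probe sets. With only the 6 arrays in the fit CXCL8 alone passed (adjusted p = 0.00613 in limma, against 0.123 for CXCL2), and both passed with a replicate block there. CXCL1, CXCL3 (0.36) and CXCL5 overlapped between the lines and did not pass. CXCL5 lay below the detection level on every Q780* and EV array, and CXCL1 on all 3 EV arrays and 1 Q780* array. The size of a difference from EV can therefore not be read for these 2 genes. In WT cells CXCL8 and CXCL2 stood higher still. CXCL8 read 12, 12.02 and 11.33 there and CXCL2 10.20, 10.28 and 9.11, so that Q780* lay between EV and WT. So did S769F cells, with means of 10.43 for CXCL8 and 7.74 for CXCL2. The direct difference from WT was -1.98 for CXCL8 (SE 0.34, adjusted p = 0.000706 with limma) and -2.43 for CXCL2 (SE 0.43, adjusted p = 0.00088 with limma). CXCL3 (-3.12) and CXCL1 (-2.25, with 1 Q780* array below the detection level) were lower as well. CXCL5, below that level on all 3 Q780* arrays, was at least 5.92-fold lower, which makes 5 of 5 members. From the 6 Q780* and WT arrays alone, 1 of the 5 passed, and 2 with a replicate block.

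Other cytokines followed in part. IL1B, which encodes interleukin-1 beta, read 9.28, 9.40 and 9.17 in Q780*, 8.13, 8.38 and 8.12 in EV and 11.35, 11.32 and 10.37 in WT cells. It was 1.07 above EV (adjusted p = 0.0159) and 1.74 below WT (adjusted p = 0.000258) in limma. The call against EV was lost without EV replicate 1 or 3 or Q780* replicate 1 or 2. Against WT it was lost with only the 6 arrays compared (adjusted p = 0.0957 in limma) and with a replicate block there (adjusted p = 0.122 in limma), where 0 of the other cytokines passed, against 5 in the fit over all arrays. IL6 read 5.35, 6.42 and 6.16 against 5.17, 5.24 and 5.14 in EV cells. The arrays did not overlap, but the difference did not pass (0.80, adjusted p = 0.258 with limma), and stood at -2.004 against WT. CCL2, a monocyte attractant, overlapped with EV (0.15). TSLP and CXCL14 (-1.56) were the 2 lower genes of the 18 other cytokines tested (1.83% of all genes were lower).

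**Figure D4:**
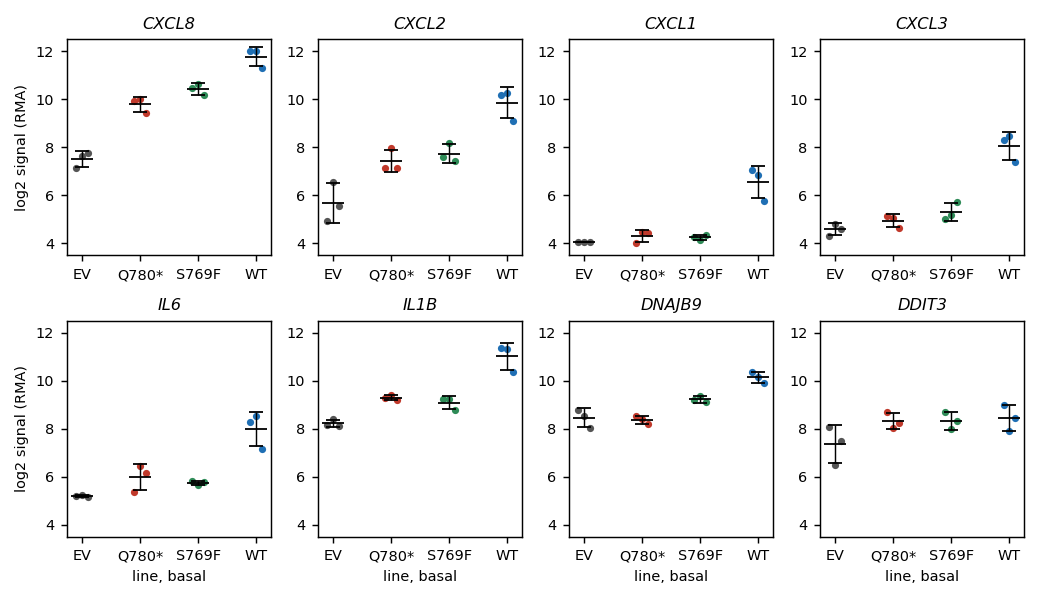
Log2 RMA signals (y axis) of 6 cytokine genes and of DNAJB9 and DDIT3 in EV, Q780*, S769F and WT cells under basal conditions (x axis), with 3 arrays per line as points and the mean with its SD as a bar. CXCL8 and CXCL2 stand between EV and WT in Q780* and in S769F cells, whereas DNAJB9 in Q780* cells is at the EV level (8.51, 8.38 and 8.20 against 8.79, 8.52 and 8.01).

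Genes of antioxidant defence that respond to NRF2 were 9 of 17 higher (52.9%, against 3.36% of all genes) and 1 lower. AKR1B10, an aldo-keto reductase of chromosome 7, read 9.12, 8.83 and 8.73 against 7.59, 7.01 and 7.19 (1.63, adjusted p = 5.96e-10 with limma). NQO1, a quinone reductase, read 12.07, 12.22 and 12.20 against 11.45, 11.67 and 11.20 (0.72). TXNRD1, thioredoxin reductase, was 0.59 higher, its substrate thioredoxin TXN 0.24 higher and the export pump ABCC2, below the detection level on all EV arrays, at least 1.52-fold higher. HMOX1, heme oxygenase, went the other way (-0.78). The other 4 raised members, SLC7A11 and AKR1C1 to AKR1C3, lie in the chromosome 4 and 10 stretches. Outside these stretches 5 of 13 members were higher, with a list median of 0.33. With only the 6 arrays in the fit those 4 and AKR1B10 passed, so that 1 gene outside the stretches did.

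Of 11 genes of HLA class I antigen presentation, 4 were higher (36.4%, against 3.36% of all genes) and 0 lower, namely HLA-F (0.79), NLRC5 (0.74), a transactivator of class I genes, HLA-B (0.62) and HLA-C (0.43). Of 9 class II genes 5 were higher (55.6%, against the same 3.36%) and 0 lower. HLA-DRA, the alpha chain of HLA-DR, read 9.46, 9.65 and 9.74 against 8.91, 8.79 and 8.77 (0.80, SE 0.19). HLA-DQA1 (below the detection level on all EV arrays and at least 1.26-fold higher), HLA-DPA1 (0.61), HLA-DRB1 (0.47) and HLA-DPB1 (0.45) were the others. HLA genes are close paralogs, so their probes may share signal. With only the 6 arrays in the fit 0 of the class I and 2 of the class II genes passed, and with a replicate block 1 and 1. With the ACTB covariate 2 of the class II genes passed.

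Matrix and adhesion genes moved in both directions. Of 21 metalloproteinases and TIMPs, 4 were higher (MMP1, TIMP3, the membrane-bound MMP14 at 0.79 and ADAM12 at 0.56) and TIMP2 was lower (-0.39). Of 42 matrix glycoproteins and proteoglycans 5 were higher and 3 lower (all genes: 3.36% and 1.83% higher and lower), and 2 and 1 with only the 6 arrays. SPP1 read 11.63, 11.68 and 11.73 against 10.48, 10.59 and 10.66, and EFEMP1, a fibulin, fell from 9.56, 9.10 and 9.37 in EV to 8.20, 8.06 and 8.31 in Q780* cells. Of 23 collagens, COL5A2 (0.85) and COL4A2 (0.56) were higher (8.7%). Both were lost with only the 6 arrays, with or without a replicate block, and COL4A2 also without any 1 of the 6 arrays. The receptor for urokinase PLAUR (0.75) and tissue factor F3 (1.06) were higher in their list of 8. The cadherins split, with CDH11 at 1.64 and PCDH17 at -1.10. Among regulators of epithelial-mesenchymal transition, ZEB1 (0.40) and SNAI2 (0.46) were higher and ZEB2 (-0.82) and FN1 (-0.26) lower, while VIM did not pass (0.06). All 4 of these calls were lost with only the 6 arrays in the fit. VEGFA (-0.09) and TGFB2 (-0.16) did not pass, and in both genes the other 3 tested probe sets pointed the other way.

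Growth and neural genes added single members. KIT, the stem cell factor receptor, was lower (-1.28), and EREG, an EGF receptor ligand, higher (0.85). The BMP pseudoreceptor BAMBI was at least 2.17-fold higher and the BMP antagonist GREM1 lower (-0.57). HES1, a Notch target, was at least 2.34-fold higher, both it and BAMBI being below the detection level on all EV arrays, and NCAM1 rose by 1.43. The glutamate transporter SLC1A1 (-0.99) and the AMPA receptor chain GRIA3 (-1.68, with 2 Q780* arrays below the detection level) were lower. Of the cell cycle lists, 0 of 24 G2/M genes and 0 of 30 replication genes passed in limma, with medians of -0.07 and -0.05, and at an unadjusted p of 0.05 the counts were 0 and 1. On tunicamycin 7 of the G2/M genes and 21 of the replication genes were lower in Q780* than in EV cells (29.2% and 70%, against 4.75% of all genes), with medians of -1.04 and -1.02. The difference between the conditions passed the adjusted p in 0 genes of either list (0.919% of all genes passed, 0.401% higher and 0.518% lower).

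Against WT cells 28 genes were called higher in Q780* cells and 44 lower, that is 0.163% and 0.256% of genes. These counts depended on the spread taken from other lines. With only the 6 arrays compared they were 2 and 13, and with a replicate block in that fit 1 and 8. The largest lowered genes were PI3, the elastase inhibitor elafin (-4.74), CXCL3 and PARM1. PI3 read 5.03, 4.12 and 4.51 in Q780* cells, 4.00, 4.20 and 4.30 in EV cells and 9.86, 9.11 and 8.91 in WT cells. The largest raised genes were THBS1, the matrix protein thrombospondin-1 (2.64), APCDD1L (1.86), SPANXC (1.84), the netrin receptor DCC (1.72) and complement factor I, CFI (1.60). THBS1 spread over 5.08 to 7.35 in WT cells. Without WT replicate 2 the higher calls were 14, and without WT replicate 3 they were 44.

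Of the 25 XBP1s targets tested, 14 were lower in Q780* than in WT cells (56% of the list, against 0.948% of all genes) and 0 higher, and the differences ran from -1.77 to -0.09. DNAJB9 read 10.35, 10.14 and 9.91 in WT cells, 3.42-fold above Q780* (-1.77, SE 0.16, adjusted p = 8.06e-09 with limma). It also passed with only the 6 arrays (adjusted p = 0.0185) and with the replicate block (adjusted p = 0.018) in limma, where it was the 1 gene of the list that passed. SDF2L1 (-0.65), the kinase inhibitor DNAJC3 (-0.55) and the signal recognition particle receptor chain SRPRB (-0.48) were further members. The ATF6 and chaperone list gave 7 of 19 lower, led by the disulfide isomerase P4HB (-0.67) and MANF (-0.64), and 0 with only the 6 arrays. Of the 16 tested genes of the RIDD list 3 were higher than in WT and 0 lower (0.89% and 0.948% of all genes were). The 3 were CD59 (0.94), TGOLN2 (0.84) and COL6A1 (0.49).

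The genes that set Q780* apart from EV mostly did not set it apart from WT. Of the 121 higher genes, 8 were also higher than in WT, 5 lower, and 108 did not pass. Of the 78 lower genes, 70 did not pass. Against S769F cells 0 of the 121 and 0 of the 78 passed. HMGN3 (1.16 above WT, adjusted p = 1.17e-06 with limma), TMEM200A (0.96) and TIMP3 (0.76) were higher than in both EV and WT cells. This was not particular to Q780* cells, whose means for these genes were 8.56, 7.0 and 8.51. The S769F means were 8.78, 7.07 and 8.34. IGFBP2 read 3.96, 3.93 and 4.04 in WT cells, like Q780*. A gene that did not pass is not shown to be alike in both lines.

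Against S769F cells, which carry a substitution in the same kinase domain, 0 genes were called higher and 4 lower with limma (0.0233%). At an unadjusted p of 0.05 and 2-fold the counts were 0 and 9. The 4 were TENM2, a teneurin (-1.66), PARM1 (-1.49), the small heat shock protein HSPB3 (-1.16) and the transcription cofactor LBH (-1.06). TENM2 read 4.87, 4.48 and 4.64 in Q780* and 6.26, 6.06 and 6.67 in S769F cells. At the adjusted p alone 13 genes (0.0756%) were lower, DNAJB9 among them (-0.85, SE 0.16, adjusted p = 0.0147 with limma). With only the 6 arrays in the fit 0 genes were called, with or without a replicate block. Without Q780* replicate 3 the calls were 1 higher and 10 lower, and without S769F replicate 1 they were 0 and 9.

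On tunicamycin, in other arrays, 183 genes were called higher in Q780* than in EV cells and 251 lower, 1.06% and 1.46% of genes. At the adjusted p alone the shares were 4.92% and 4.75%, together 9.67%. Of the 121 genes higher under basal conditions 57 were among them, which is 47.1% of the basal and 31.1% of the tunicamycin genes. Of the 78 lower genes 48 were shared, 61.5% of the basal and 19.1% of the tunicamycin genes. The sign was the same for 116 of the 121 and 74 of the 78. IGFBP2 stayed low (4.15, 4.24 and 4.05 against 8.20, 7.66 and 8.29), and TIMP3 stood 3.08 and CXCL8 2.13 above EV. DNAJB9 overlapped between the lines there too, with 10.54, 10.53 and 10.24 against 10.12, 10.59 and 10.40.

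A test of the difference between the 2 conditions called 50 genes in which Q780* stood higher relative to EV on tunicamycin than under basal conditions, and 52 in which it stood lower (0.291% and 0.302%). Of the genes called on basal arrays, 17 of the higher and 4 of the lower ones passed its adjusted p. SLC7A11 was the clearest. It read 12.37, 12.11 and 12.13 in Q780* and 11.32, 11.56 and 11.30 in EV cells on tunicamycin, so that the difference narrowed from 3.19 to 0.81 (by -2.38, SE 0.25, adjusted p = 7.28e-07 with limma). AKR1C1, AKR1C2 and AKR1C3 also narrowed. HMGN3 passed too, but its EV signals were below the detection level in both conditions, so the size of its change cannot be read. The clock gene PER1, higher on basal arrays, was at -0.39 on tunicamycin, and that difference between conditions did not pass (adjusted p = 0.0831 with limma).

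**Figure D5:**
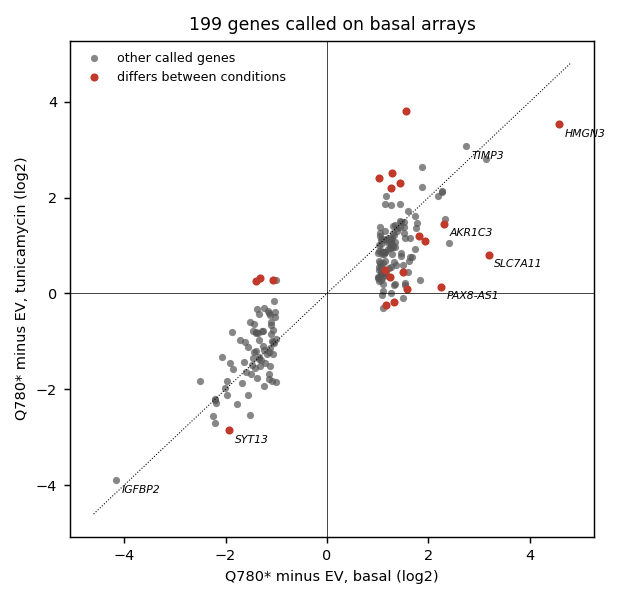
Log2 difference between Q780* and EV cells on tunicamycin (y axis) against that under basal conditions (x axis) for the 199 genes called on basal arrays, with genes whose differences pass an adjusted p of 0.05 between conditions in red and the line of equal values dotted. Most genes lie in the same quadrant on both axes, 116 of 121 higher and 74 of 78 lower ones, and SLC7A11 lies far below the line (3.19 and 0.81).

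Genes with more than one tested probe set allowed a further check of the calls. Of the 121 higher genes 66 had other tested probe sets, and in 47 of them every other one pointed the same way. For the lower genes these counts were 42 and 29.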

How the data were processed

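Gene expression was measured on 40 arrays, of which 3 Q780* and 3 EV basal arrays form the comparison; WT and S769F basal and Q780* and EV tunicamycin arrays were used beside them. Each array took 6 µg of total RNA. The deposited values are log2 signals, which the authors made with RMA (background correction, quantile normalization and summary per probe set; version not given in the sources used here). Since RMA makes the arrays' distributions alike, a shift of all genes cannot be seen. The number of arrays, in place of depth, limits the precision.

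A single gene symbol was listed for 40920 of the 54715 probe sets, and the rest (864 naming several genes, 12931 naming no gene) were left out. The probe set with the highest mean stood for each of 19774 genes (median 2 probe sets). The tests covered 17191 genes whose signal reached the 40th percentile of its array (log2 4.23 to 4.31) at least 2 times. A single limma 3.58.1 model (R 4.3.3) with a mean for each group took in the 40 arrays, P336L, A414T and IRE1-DN included. It had 26 residual degrees of freedom and 3.436 from the prior. A gene below that percentile, called the detection level, on every array of a group was given a fold as a lower bound, against that level. Calls needed a Benjamini-Hochberg adjusted p under 0.05 and 2-fold. The fit was tested on simulated data with 17191 genes. Stretches of neighbouring genes (running median over 31 genes above 0.2, at least 20 genes, gaps up to 5 bridged, chromosomes 1 to 22) use RefSeq gene order.

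Named are ERN1, the study's genes, the 20 highest and 15 lowest called genes, up to 4 members per list and up to 5 each way in the direct comparisons and the difference between conditions; a Y-linked gene is not reported. Other genes named in the lists and stretches were chosen after their values were seen. The comparison and the 43 gene lists and 8 marker lists were chosen with earlier results of these data known. Arrays with the same replicate number deviated together from their group means. For Q780* and EV r was 0.206 to 0.47, all pairs over 0.1, against -0.319 to 0.101 for different numbers. This held for WT (0.226 to 0.493), S769F (0.413 to 0.594) and the tunicamycin arrays (0.13 to 0.362). The main fit and the t-test did not pair arrays, and the numbers entered as a block only in alternatives. What a number stands for is not stated. Alternatives were other filters, summaries, normalizations, covariates, blocks, fold minimums, a t-test and leaving out each array. Figures were drawn with matplotlib 3.10.9.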

Additional observations from a re-analysis of the deposited data

Results flagged for a closer look

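The difference between Q780* and EV cells was tested for a difference between tunicamycin and basal arrays, and 102 genes were called. Among the genes named by rule and the members of the gene lists, the following passed, with the change of the log2 difference from basal to tunicamycin arrays given for each. Narrower or lower on tunicamycin were CCN5 (-3.02), COL13A1 (-2.76), SLC7A11 (-2.38), ADA (-2.20), PSG1 (-2.11), PAX8-AS1 (-2.10), MMP16 (-1.14), HMGN3 (-1.04), MMP14 (-0.98), AKR1C3 (-0.86), AKR1C2 (-0.84) and AKR1C1 (-0.61). SYT13 (-0.93) and SLC1A1 (-0.65), lower in Q780* cells in both conditions, were lower still on tunicamycin. For HMGN3 all EV signals were below the detection level in both conditions, so the size of its change cannot be read. Higher on tunicamycin were SPRR2B (3.86), CSTA (2.86), SPX (2.74), NRXN3 (2.71), LINC02806 (2.52), ABCC2 (2.33), PARM1 (1.49), BAMBI (1.22), ATF5 (0.96), MAFF (0.89) and NCAM1 (0.88). SPRR2B, CSTA, SPX, LINC02806, ABCC2 and BAMBI lay below the detection level on all EV basal arrays, so the sizes of their changes are uncertain as well.

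Some of the largest changes were in genes near the detection level in both lines under basal conditions, such as CCN5, SPRR2B and SPX, whereas COL13A1, a membrane collagen, read 9.30 to 9.39 in Q780* and 9.69 to 9.77 in EV cells there. CCN5, a matricellular protein, read 3.92, 4.25 and 4.27 in Q780* and 6.75, 7.17 and 7.75 in EV cells on tunicamycin. SPRR2B, a cornified envelope protein, read 9.69, 9.70 and 9.39 against 5.30, 5.75 and 5.28, and the protease inhibitor CSTA 7.99, 8.28 and 8.43 against 4.17, 4.96 and 4.58. SPRR2B belongs to a family of close paralogs, so its probes may share signal.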

How the results depend on the processing

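Of 141 values for named genes, recomputed under 2739 alternatives, 14 turned sign, none of them past the adjusted p before. Leaving out 1 array gave -0.392 to 0.049 for PDGFRB (above 0 without Q780* replicate 2), -0.015 to 0.308 for CCL2 (below 0 without EV replicate 2), -0.292 to 0.1 for DNAJB9 (above 0 without EV replicate 1 or Q780* replicate 3), -0.189 to 0.288 for HERPUD1 (below 0 without EV replicate 2 or 3 or Q780* replicate 1) and -0.145 to 0.073 for XBP1 (above 0 without EV replicate 1 or 3 or Q780* replicate 2 or 3). HERPUD1 read -0.043 with the ACTB covariate. With the mean of probe sets VEGFA read 0.12 and TGFB2 0.07. Passing the threshold was less stable than the sign. Of 105 named genes past the adjusted p against EV, 48 no longer passed with only the 6 arrays compared. With a replicate block there 43 were lost, and with the methods' t-test after adjustment 104. ITGB8 (adjusted p = 0.095 in limma) and ENPP5 (adjusted p = 0.0589 in limma) were among the 48.

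Called genes for Q780* against EV, 199, were 116 with the mean of probe sets, 571 at 1.5-fold, 891 with no fold minimum and 2 with the methods' t-test after adjustment; leaving out 1 array gave 190 to 254. With only the 6 arrays in the fit they were 135. With a replicate block over all arrays they were 206, all 199 included, and with the block on the 6 arrays 175. Against WT, 72 became 15 with only the arrays compared, 9 with a replicate block there, 185 at 1.5-fold, 316 with no fold minimum and 0 after the adjusted t-test (71 before adjustment), and 52 to 91 without 1 array. Against S769F, 4 became 9 with the hybridization control covariate, 12 at 1.5-fold, 13 with no fold minimum, and 0 with only the arrays compared, with a replicate block there and after the adjusted t-test (6 before adjustment); leaving out 1 array gave 3 to 11. On tunicamycin, 434 became 272 with the mean of probe sets, 167 after the adjusted t-test, 1029 at 1.5-fold and 1662 with no fold minimum (378 to 503 without 1 array). For the difference between conditions, 102 became 64 with the mean of probe sets, 41 and 216 with the t-test after and before adjustment and 158 with no fold minimum (72 to 107 without 1 array). The cause was not tested. Over the 43 lists, 104 calls became 44 with only the 6 arrays, 56 with a replicate block there and 120 with the block over all arrays. The replicate block moved no other count of called genes by over 1.5 times. ERN1 probe sets kept their direction and side of the threshold under the 8 alternatives run for them.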
